A study of Mus musculus with 6 samples.

Results

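The genes of MHC class II antigen presentation were followed through the cell classes of 6 single-cell RNA libraries. They are 10 of the 32285 genes measured and were found by symbol. H2-Aa, H2-Ab1 and H2-Eb1 encode chains of the class II molecules I-A and I-E, Cd74 encodes the invariant chain, and Ciita encodes the transcriptional activator of the group. H2-DMa, H2-DMb1 and H2-DMb2 encode chains of H2-DM, and H2-Oa and H2-Ob the chains of H2-O. Each library came from 1 mouse, so a difference between treatments has no replicate and is given without a p-value.

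The methods describe tumors that KPCA cells, an ovarian cancer line of the mouse with intact homologous recombination, formed in the ovarian bursa of C57BL/6 mice, while the labels name lymph node and the series text mentions young and aged animals. The control mouse got solvent and rat IgG. The 2DG mouse got 2-Deoxy-D-glucose, used in the study as an inhibitor of branched N-glycans, and the 2FF mouse got 2F-Peracetyl-Fucose, an inhibitor of fucosylation, after injection of tumor cells that had themselves been kept in 2FF. The anti-PD-L1 mouse got a blocking antibody to PD-L1, the ligand of the checkpoint receptor PD-1, and a mouse each got this antibody with 2DG or with 2FF. The comparisons of 2DG and of 2FF share their control and anti-PD-L1 libraries. Wherever 6 values are listed, the control comes first, then the single treatments 2DG, 2FF and anti-PD-L1, then 2DG with anti-PD-L1 and last 2FF with anti-PD-L1.

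Class II molecules carry peptides from proteins taken up by a cell to CD4 T cells. The invariant chain fills the peptide groove of a new class II molecule until endosomal proteases cut it, H2-DM then exchanges its last fragment for peptides, and H2-O restrains H2-DM. Dendritic cells and B cells make class II molecules constantly, monocytes and macrophages make more of them under interferon-gamma, and in all of them CIITA binds to factors already sitting on the class II promoters rather than to DNA. The C57BL/6 strain makes no I-E alpha chain, so its H2-Eb1 RNA does not give a complete I-E molecule.

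In GRCm38 coordinates, the 8 H2 genes lie within 224 kb of chromosome 17 (34092340 to 34316674). H2-Oa is the first of them (34092340 to 34095234) and H2-Eb1 the last (34305867 to 34316674). H2-DMb2 (34143307 to 34151555) and H2-DMb1 (34153072 to 34160230) are neighbours and near-identical copies, so reads may be split between them and their single values are uncertain.

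Promoters are shown as background, and their part in differences between libraries was not tested. H2-DMb2, H2-Oa and H2-Ob, printed among them, had little RNA in monocytes, as described further on. RefSeq windows of 300 bases (GRCm38.p6) were found for 7 of the 10 members. They were searched on both strands for TGATTGG, which holds the CCAAT box that NF-Y binds in reverse, and for AACNGATG, a form of the X box that the RFX factors bind, and the motifs do not overlap. TGATTGG was found in 6 of the 7 members and AACNGATG in 3 (H2-Eb1, H2-DMb1 and H2-DMb2), always on the strand of the gene. Of 32851 promoters of this length, 7.82% held TGATTGG, 2.32% AACNGATG and 0.186% both. In the 3 members with both, 20 to 21 bases lay between them. H2-DMa held neither, which says only that these letters are not in its windows. The bases from -130 to -31 before the RefSeq start are printed for 5 members, with the motifs in capitals. That start lies 0 bases (H2-Aa and H2-Eb1), 2 bases (H2-Ob) and 39 bases (H2-Oa) after the gene start of the positions above, but 1942 bases after it in H2-DMb2, whose window is therefore inside the longer gene model.
H2-Aa (chr17:34287854-34287953, - strand): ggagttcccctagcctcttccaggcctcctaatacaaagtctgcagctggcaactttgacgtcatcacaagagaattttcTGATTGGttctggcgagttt
H2-Eb1 (chr17:34305737-34305836, + strand): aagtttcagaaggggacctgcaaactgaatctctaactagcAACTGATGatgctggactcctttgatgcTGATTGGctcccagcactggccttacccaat
H2-DMb2 (chr17:34145119-34145218, + strand): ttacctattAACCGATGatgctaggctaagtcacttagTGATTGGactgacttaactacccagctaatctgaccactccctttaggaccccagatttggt
H2-Oa (chr17:34092249-34092348, + strand): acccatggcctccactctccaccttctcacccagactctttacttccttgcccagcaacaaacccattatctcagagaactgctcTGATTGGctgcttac
H2-Ob (chr17:34238775-34238874, + strand): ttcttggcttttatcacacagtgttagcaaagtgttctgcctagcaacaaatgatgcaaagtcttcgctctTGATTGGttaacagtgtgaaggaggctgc
The first base of TGATTGG stood at -50 in H2-Aa, -61 in H2-Eb1, -92 in H2-DMb2, -45 in H2-Oa and -59 in H2-Ob. AACNGATG began at -89 in H2-Eb1 and at -121 in H2-DMb2.

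Cells were placed in classes by fixed marker genes, none of them a class II gene. Dendritic cells were split into type 1 (cDC1, 529 cells), type 2 (cDC2, with Cd209a, 634), mature migratory (mature DC, with Ccr7, 587) and plasmacytoid (pDC, with Siglech, 136). B cells numbered 1341. Classical monocytes were split by 6 interferon-induced genes into IFN-low (8153 cells) and IFN-high (3412), and non-classical monocytes with Ace numbered 1609. Macrophages with C1q genes and Mrc1 but little Spp1 (C1q macrophages) numbered 2790, and those with Spp1 and Gpnmb 117, of which 45 were in the control library and fewer than 20 in each other one. Keratin-positive cells without Ptprc, the class gated by tumor cell markers, numbered 31. T cells (13501) and neutrophils (4850), which in mice make next to no class II RNA, were measured in the same way. Each class, pooled, showed all 6 of its own markers, but the cells were gated on them, so this does not test the gates. Non-classical monocytes held 3554 CPM of classical monocyte markers and 2092 of their own. cDC2 held 1242 CPM of classical monocyte markers and 1094 of cDC1 markers beside 2252 of their own. cDC1 held 707 CPM of cDC2 markers beside 4762 of their own. pDC held 3374 CPM of classical monocyte markers beside 4391 of their own. The Spp1 and Gpnmb macrophages of the control held 2692 CPM of classical monocyte markers beside 3125 of macrophage markers. Only 24.4% of these 45 cells lay in a cluster where macrophages were the most frequent class, so their levels may include other cells. Of the classical monocytes, 21.6% scored within 5 to 20 around the limit of 10 interferon UMIs per 10000, so the split is a range and not a pair of types.

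Libraries held 61859753 to 73885214 UMIs (unique molecular identifiers, which count captured RNA molecules), and 7703 to 9222 cells with at least 250 genes and at most 5% mitochondrial UMIs. Pairs of libraries shared 12 to 27 cell barcodes. The control library stood apart, with 3248 neutrophils against 239 to 450 in the others and 394 T cells against 1928 to 3031. A level is given in CPM, the counts per 1000000 UMIs of its class and library, in 3' tags. In such sums, fewer expressing cells and less RNA per cell cannot be told apart.

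Both chains of I-A were at their highest in cDC1 and cDC2 and varied little there between the 6 mice. H2-Aa, the I-A alpha chain, read 5208, 4944, 6308, 5613, 4929 and 4755 CPM in cDC1, a mean of 5292 ± 580 (SD, n = 6), and 5804, 4713, 5512, 5133, 4964 and 4893 CPM in cDC2, a mean of 5170 ± 412. The ranges of these classes overlapped and neither was higher in more than 3 libraries (exact sign-flip permutation test, two-sided, p = 0.625). C1q macrophages came next at 2790, 4364, 4935, 4505, 4627 and 3328 CPM, with the control library lowest. Mature DC read 1819, 2414, 3746, 3111, 3935 and 3713 CPM and B cells 1917, 1837, 2722, 2227, 2104 and 1852. The 4 libraries with at least 20 pDC gave 1385 ± 331 CPM.

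Monocytes held less H2-Aa than the C1q macrophages, mature DC and B cells of the same library, and the level varied over a wider range between mice. In the 4 libraries with pDC, IFN-low monocytes averaged 1574 CPM and pDC 1385, with pDC lower in 3 of 4. IFN-low monocytes read 306 CPM in the control and 1598, 1820, 1292, 1584 and 1108 CPM in the others, a 5.95-fold range against 1.33-fold in cDC1. IFN-high monocytes read 362 CPM in the control and 768 to 1700 elsewhere, and non-classical monocytes 290 against 554 to 1284. The control library was the lowest of the 6 in all 3 classes. The Spp1 and Gpnmb macrophages of the control read 649 CPM.

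**Figure D1:**
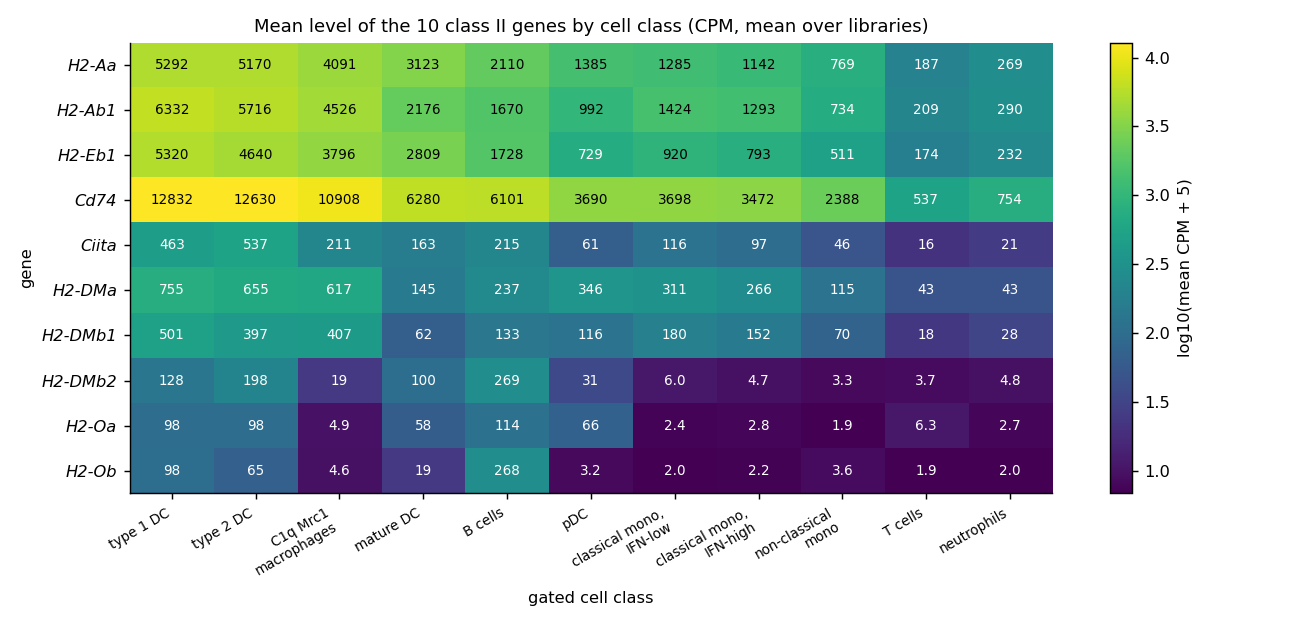
Heat map of the mean level of each class II gene by cell class, in CPM over the libraries of at least 20 cells, coloured on a log scale. The 4 abundant genes H2-Aa, H2-Ab1, H2-Eb1 and Cd74 keep nearly the same order of classes, with cDC1 and cDC2 at the top, while H2-DMb2, H2-Oa and H2-Ob are near 0 in monocytes.

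H2-Ab1 and H2-Eb1, the I-A and I-E beta chains, followed H2-Aa across classes. H2-Ab1 averaged 6332 ± 718 CPM in cDC1, 5716 ± 425 in cDC2, 4527 ± 1027 in C1q macrophages and 2176 ± 730 in mature DC (SD, n = 6). In IFN-low monocytes it was 394 CPM in the control and 1760, 2008, 1457, 1693 and 1232 in the others. H2-Eb1 averaged 5320 ± 479 CPM in cDC1 and 4640 ± 632 in cDC2. In IFN-low monocytes it was 222 CPM in the control and 1181, 1300, 852, 1165 and 798 in the others, so that again no other library came near the control.

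Cd74, whose product chaperones class II molecules, lies on chromosome 18 (GRCm38, 60803848 to 60812652) and had the same order. It read 13430, 12813, 14277, 14081, 11431 and 10958 CPM in cDC1 and 14840, 11933, 12592, 12692, 12286 and 11438 in cDC2, with overlapping ranges (mean difference 0.02 on the log2 scale, SD 0.14, exact sign-flip permutation p = 0.719). C1q macrophages held 10908 ± 1869 CPM, mature DC 6280 ± 1408 and B cells 6101 ± 647. The last pair did not differ beyond its spread (0.01, SD 0.31, exact sign-flip permutation p = 0.969). IFN-low monocytes read 1129, 4503, 5021, 3662, 4467 and 3405 CPM.

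Ciita, the activator, lies on chromosome 16 (GRCm38, 10480059 to 10528418) and was measured at lower depth but in a like pattern. In cDC2 it read 528, 686, 453, 677, 390 and 490 CPM and in cDC1 440, 491, 445, 535, 379 and 489, lower than in cDC2 in 6 of 6 libraries. B cells (215 ± 48.5 CPM) and C1q macrophages (211 ± 59.7) did not differ beyond their spread. In mature DC it ran from 44.3 CPM in the control to 97.3, 151, 179, 227 and 278 in the other libraries. In IFN-low monocytes it was 22.6 CPM in the control and 170, 129, 145, 122 and 110 elsewhere. T cells read 12.3 to 22.0 CPM.

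The 3 chains of H2-DM, the peptide exchanger, did not share one pattern. H2-DMa read 789, 836, 823, 907, 566 and 608 CPM in cDC1 and only 88.7, 119, 175, 162, 180 and 144 in mature DC, with no overlap. H2-DMb1 gave 501 ± 71.8 CPM in cDC1, 397 ± 85.8 in cDC2, 407 ± 84.8 in C1q macrophages and 62.1 ± 21.1 in mature DC. H2-DMb2 was at its highest in B cells (269 ± 16.6 CPM) and read 386, 248, 140, 172, 92.9 and 148 CPM in cDC2. It reached no more than 7.75 CPM in any monocyte class, where H2-DMb1 read 54.0, 206, 240, 184, 225 and 169 CPM in IFN-low cells.

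H2-Oa and H2-Ob, the chains of the H2-DM inhibitor, were found in B cells and dendritic cells. H2-Ob read 303, 264, 228, 296, 273 and 244 CPM in B cells, all above the 74.8 to 122 CPM of cDC1 and the 50.2 to 100 CPM of cDC2. It had 0 UMIs in the pDC of the 2DG, 2FF and 2DG with anti-PD-L1 libraries, where 3 UMIs would have been 8.77 to 14.0 CPM. H2-Oa read 114 ± 21.1 CPM in B cells, 97.8 ± 19.1 in cDC1, 97.8 ± 43.0 in cDC2 and 57.9 ± 27.1 in mature DC, and 66.2 ± 14.9 in the 4 libraries with pDC. In monocytes, H2-Oa and H2-Ob stayed at or below 8.42 CPM, near the T cell levels of 3.93 to 10.6 CPM for H2-Oa and 1.36 to 3.32 for H2-Ob.

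**Figure D2:**
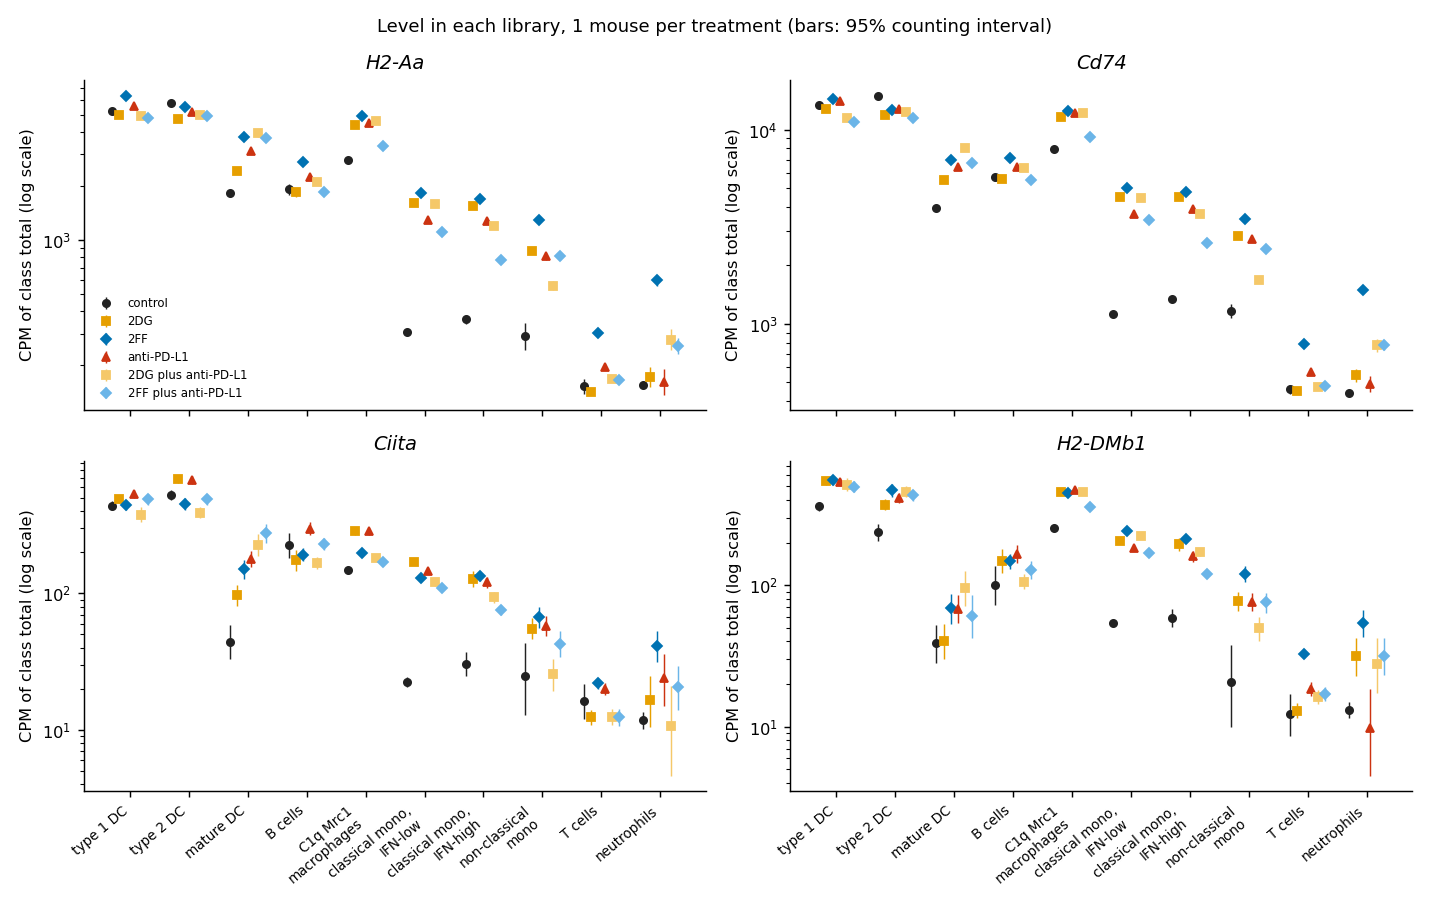
Level of class II genes in each library, in CPM on a log axis, by cell class. The H2-Aa points of the monocyte classes are lowest for the control library (306 CPM in IFN-low monocytes against 1108 to 1820 in the other 5). In cDC1 and cDC2, H2-Aa ranged only 1.33-fold and 1.23-fold between libraries. Ciita and H2-DMb1 ranged 1.76-fold and 1.98-fold in cDC2.

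T cells and neutrophils gave the level that class II RNA reaches in cells that should lack it. H2-Aa read 152, 141, 303, 196, 168 and 164 CPM in T cells, highest in the 2FF library, and 154, 172, 595, 162, 278 and 256 CPM in neutrophils. Much of it sat in few cells. Of the T cells, 12421 of 13501 were not marked as resembling simulated doublets, and these held 31.6 CPM of H2-Aa against 195 CPM in all T cells, as 86.2% of the T cell UMIs of H2-Aa lay in the marked cells. The neutrophil level went from 194 to 78.4 CPM in the same way, whereas IFN-low monocytes went from 1039 to 1002 and cDC2 from 5118 to 5188. Resemblance to doublets was scored on variable genes from which class II genes were not excluded, so class II RNA could itself mark a cell.

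As a share of cells with an H2-Aa UMI, each cell thinned to 1000 UMIs, cDC2 gave 94.9% (95% exact Clopper-Pearson interval 92.9 to 96.5), B cells 84.4%, C1q macrophages 87.0%, mature DC 68.6% and T cells 5.19% (4.83 to 5.58). IFN-low monocytes gave 14.7% in the control and 46.0, 49.2, 35.8, 42.1 and 38.1% in the other libraries. The control share was above the T cell background and below the lowest of the others, with intervals of 13.3 to 16.2% and 33.3 to 38.3%. Without thinning, cDC2 gave 98.4%, IFN-low monocytes 51.4% and T cells 16.1%. Thinning left out 61 IFN-low monocytes, 28 T cells and 1 cDC2, and the median depth was 7921 UMIs for IFN-low monocytes and 6189 for T cells. The intervals cover counting error only.

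Class differences were paired within each library and tested over the mice, whose treatments enter the spread. Exact sign-flip tests, two-sided, were run for neighbouring classes and for pairs set for every member, 126 in all with each pair counted once. Of these, 52 reached an unadjusted p of 0.03125, the smallest that 6 libraries allow. None passed after Benjamini-Hochberg adjustment, where the smallest adjusted p was 0.0757. In pairs with pDC, over 4 libraries, the smallest possible p was 0.125. With such limits few outcomes could have passed, so the lack of calls says little about the classes. A fit across all genes with library and class as terms (edgeR quasi-likelihood, added after the data were seen) passed an adjusted p of 0.05 in 48 of 70 member and pair combinations. Its shares of all genes called were high, 37.4 to 64% by pair, so a member's call by itself is common. These shares, here and below, count genes called in either direction.

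Between cDC1 and cDC2, where edgeR called 37.4% of all genes, 4 of 10 members were called. H2-Ob was higher in cDC1 by 0.57 on the log2 scale (SE 0.12, edgeR adjusted p = 0.00303) and H2-DMb1 by 0.29 (SE 0.09, edgeR adjusted p = 0.0207). Ciita was lower in cDC1 by 0.26 (adjusted p = 0.0225), a log2 difference of -0.26, and so was H2-DMb2, at -0.62 (adjusted p = 0.0395). The classes differed by a median of 0.11 log2 units over the members, and by 0.20 without the control library.

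Mature DC were lower than cDC2 in 8 of 10 members by edgeR, against 57.3% of all genes called in either direction. The largest gap was that of H2-DMb1, at -2.56 on the log2 scale (SE 0.12, edgeR adjusted p = 1.81e-09), followed by H2-DMa at -2.06 (adjusted p = 1.70e-07), Ciita at -1.72 and H2-Ob at -1.70. The class II chains were less far apart, with H2-Aa at -0.62 and H2-Eb1 at -0.61. H2-DMb2 (-0.78, adjusted p = 0.0914) and H2-Oa (-0.61, adjusted p = 0.133) did not pass. Whether H2-DM genes were further below cDC2 than the chains was not tested.

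In pDC, over 4 libraries, 9 of 10 members were lower than in cDC2 by edgeR, with 42.7% of all genes called. Ciita was lower by 3.37 log2 units (a log2 difference of -3.37, SE 0.29, adjusted p = 2.00e-06) and H2-Ob stood at -4.35. H2-DMa was closest among the called, at -1.07, and H2-Oa did not pass (-0.45, adjusted p = 0.110). In B cells, 7 members were lower than in cDC2 and 2 higher, with 64% of all genes called. H2-Ob was higher by 2.04 (SE 0.12, edgeR adjusted p = 1.36e-08) and H2-DMb2 by 0.55 (adjusted p = 0.0309), while H2-Ab1 stood at -1.84 and H2-DMb1 at -1.64. H2-Oa was at 0.28 (adjusted p = 0.221).

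C1q macrophages were higher than IFN-low monocytes in 10 of 10 members by edgeR, with 48.6% of all genes called. H2-Eb1 differed most, at 2.05 (SE 0.21, adjusted p = 0.000111), H2-Aa by 1.67 and Cd74 by 1.52. H2-Oa and H2-Ob were called too, but at means of 4.92 and 4.63 CPM in the macrophages, where T cells gave 6.33 and 1.88. IFN-high monocytes did not pass against IFN-low ones for any member (0 of 10, all unadjusted p above 0.05 by edgeR), with 37.7% of all genes called. The differences ran from -0.17 for H2-DMb2 to 0.35 for H2-Oa. By the exact sign-flip test, 1 member, H2-DMa, reached the smallest p of 0.03125 there, lower in IFN-high cells in 6 of 6 libraries (-0.23, SD 0.16). Its edgeR difference was -0.07. The direction of H2-Aa, H2-Ab1 and Cd74 depended on the scaling, below 0 in log2(CPM + 5) and above 0 by edgeR (0.02, 0.05 and 0.10). Non-classical monocytes were lower than IFN-low ones in 8 of 10 members by edgeR, with 47.7% of all genes called. H2-DMa stood at -1.42 (SE 0.10, adjusted p = 9.22e-08), Ciita at -1.38 and Cd74 at -0.57. With monocytes kept only where they lay in a cluster of their own class, the median over members of this pair moved from -0.76 to -0.21.

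**Figure D3:**
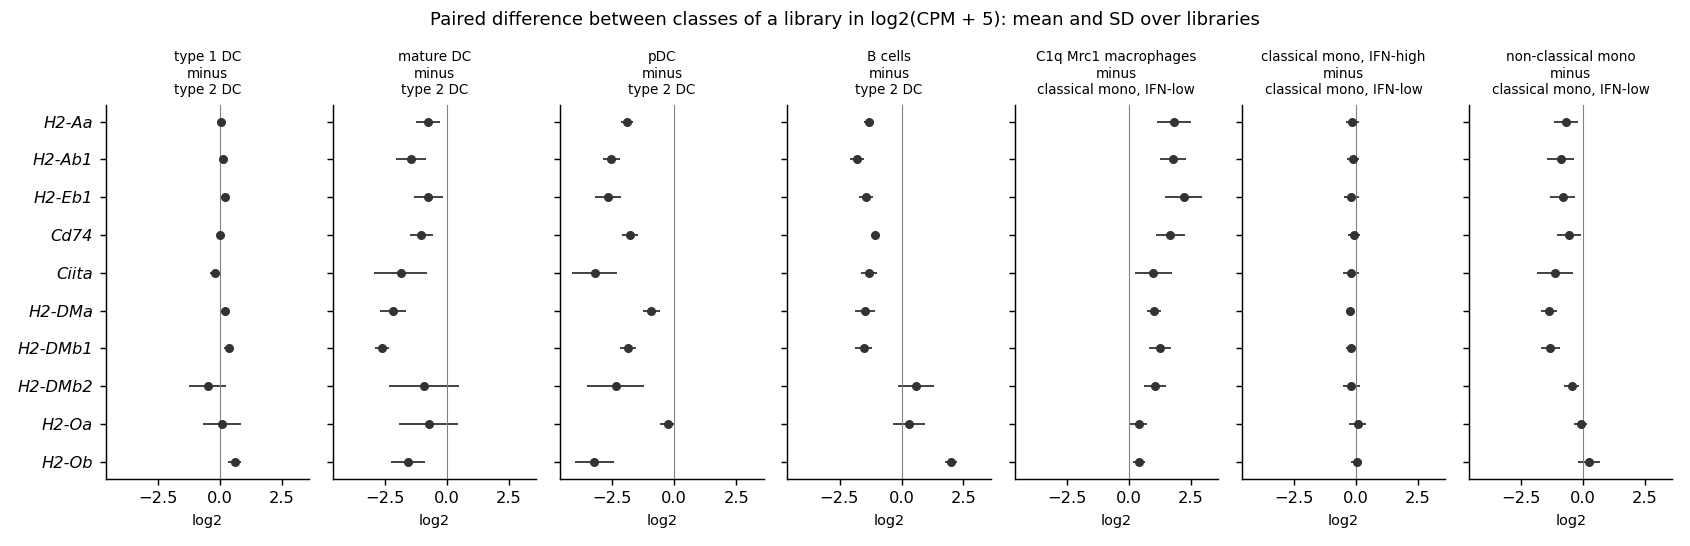
Difference in log2(CPM + 5) between pairs of cell classes for each class II gene, as the mean with SD over libraries. Counts of libraries are given here and are not drawn. Mature DC average below cDC2 for H2-DMa and H2-DMb1, in 6 of 6 libraries each. B cells average above cDC2 for H2-Ob, also in 6 of 6. For IFN-high minus IFN-low monocytes 8 of 10 members average below 0 on this scale, with H2-DMa below 0 in 6 of 6 libraries. By edgeR, which scales the sums otherwise, H2-Aa, H2-Ab1, Cd74, H2-Oa and H2-Ob stood above 0 and the other members below.

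Against the control, class II RNA was higher in all 3 monocyte classes of each single treatment. Ratios are on the log2 scale of CPM + 5, for genes with at least 50 UMIs in both libraries together, and past 2-fold means a log2 ratio of at least 1. Over 8 classes, 23 of 70 member and class pairs were past 2-fold higher and 0 lower for 2DG over control, where 2.44% of all gene and class pairs were higher and 2.5% lower. For 2FF over control 26 of 70 were higher and 2 lower (3.54% and 3.15% of all pairs), and for anti-PD-L1 over control 22 of 71 and 1 (3.13% and 2.44%). The 3 comparisons share the control library, so they are not independent of one another.

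The 3 monocyte classes held 20, 21 and 19 of the higher pairs. In IFN-low monocytes, for 2DG over control 7 of 9 tested members were past 2-fold higher (3.12% of all genes), for 2FF 7 of 8 (3.07%) and for anti-PD-L1 7 of 9 (3.77%), with member medians of 1.99, 2.22 and 1.69 against 0.15, 0.13 and 0.13 for all genes tested. H2-Aa read 306 CPM in the control and 1598, 1820 and 1292 in these libraries, 5.15-fold, 5.87-fold and 4.17-fold on the CPM + 5 scale. Ciita stood at log2 ratios of 2.67, 2.28 and 2.45 and Cd74 at 1.99, 2.15 and 1.69. The H2-Aa ratio kept to 2.11 to 2.44, 2.30 to 2.59 and 1.81 to 2.07 under all alternatives.

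In IFN-high monocytes 7 of 7, 7 of 7 and 6 of 7 tested members were past 2-fold higher for 2DG, 2FF and anti-PD-L1 over control (3.24%, 2.97% and 2.99% of all genes), with medians of 1.89, 1.96 and 1.73. In non-classical monocytes 6 of 7, 7 of 7 and 6 of 7 were (4.13%, 5.43% and 4.8% of all genes), with medians of 1.33, 1.88 and 1.28. Only 65 non-classical monocytes were in the control, so the interval of H2-DMb1 there ran from 0.93 to 2.42 for 2DG.

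Other features of IFN-low monocytes moved with the control library. Their median depth was 10725 UMIs per cell in the control and 6843 to 8580 in the others. The summed neutrophil markers were 868 CPM in the control and 183, 283, 312, 455 and 665 in the others, with all 6 markers found in every library, and the summed B cell markers 8.0 against 33.0 to 55.1. The summed macrophage markers ranged from 447 to 769 CPM, with the control at 581. Over the 6 libraries, the summed cDC1 markers ranged from 250 to 496 CPM and the cDC2 markers from 34.3 to 108. Those of mature DC ranged from 4.68 to 37.9 CPM and those of pDC from 2.52 to 9.49. The part of these in the result was not tested. The share of IFN-low cells that lay in a cluster of their own class was 88.7% in the control and 71.0, 62.4, 73.7, 72.1 and 68.6% in the others. With those cells alone, the H2-Aa log2 ratios over control were 2.44, 2.41 and 1.82 for 2DG, 2FF and anti-PD-L1. Class II genes were not excluded from the clustering, so class II RNA could itself place a cell and these ratios are no independent check. In T cells of the same libraries the member medians were -0.12, 0.67 and 0.29, and in neutrophils 0.37, 1.72 and 0.12.

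**Figure D4:**
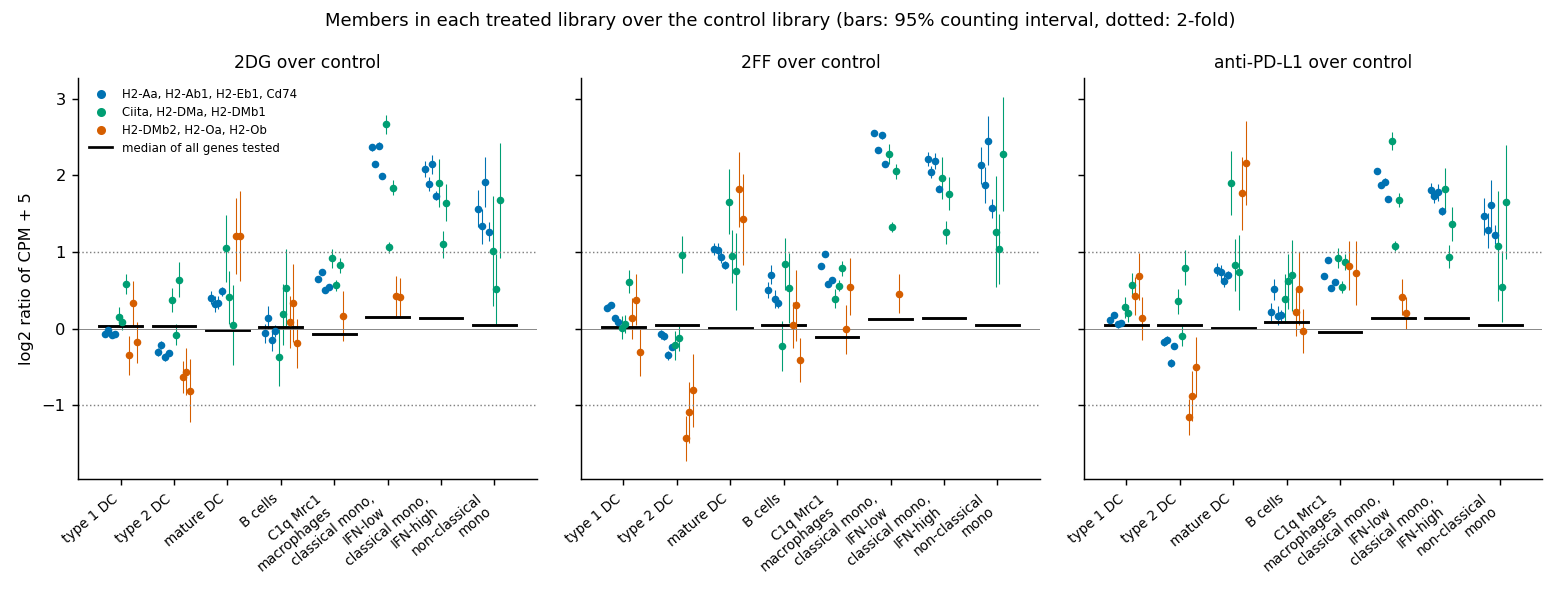
Log2 ratio of CPM + 5 over the control library for each class II gene and cell class, for 2DG, 2FF and anti-PD-L1. Points for the 3 monocyte classes lie mostly above the line at 1 (2-fold), those of cDC1 and B cells between -1 and 1, and those of cDC2 mostly below 0, down to -1.43 for H2-DMb2.

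Mature DC of the single treatments had fewer members past 2-fold higher than the control. For 2DG 3 of 9 tested were past 2-fold higher (1.08% of all genes), for 2FF 5 of 9 (1.64%) and for anti-PD-L1 3 of 9 (1.63%). Ciita stood at 1.05, 1.66 and 1.90, H2-DMb2 at 1.21, 1.82 and 1.77 and H2-Oa at 1.21, 1.43 and 2.16. H2-Aa (1.04) and H2-Ab1 (1.02) were past 2-fold for 2FF. Mature DC of the control held 245 CPM of macrophage markers against 17.4 to 63.6 in the others, and 345 CPM of neutrophil markers against 7.52 to 191, which were not tested as a part of it.

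The other antigen-presenting classes had fewer members past 2-fold. In neutrophils, measured as background, 1 of 8, 7 of 8 and 0 of 8 tested members were past 2-fold higher for 2DG, 2FF and anti-PD-L1. Of all genes tested there, 6.61%, 6.21% and 4.77% were. C1q macrophages had no member past 2-fold, though member medians were 0.61, 0.58 and 0.73 and 8 of 8, 8 of 9 and 9 of 9 tested members lay above 0. Medians were -0.05, 0.14 and 0.19 in cDC1 and 0.03, 0.36 and 0.31 in B cells. In cDC2 they were -0.31, -0.23 and -0.20, and the members past 2-fold lower were all here, H2-DMb2 at -1.43 and H2-Oa at -1.09 for 2FF and H2-DMb2 at -1.15 for anti-PD-L1. The 386 CPM of H2-DMb2 in the control cDC2 came from 60 cells, in which 1 of 6 B cell markers was found, at 55.8 CPM against 32.8 to 101 elsewhere.

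With anti-PD-L1 as the base, adding an inhibitor went with few changes past 2-fold. For 2DG with anti-PD-L1 over anti-PD-L1, 0 of 78 pairs were past 2-fold higher and 2 lower (1.07% and 1.1% of all pairs), Ciita in non-classical monocytes at -1.04 and H2-DMb2 in C1q macrophages at -1.19. For 2FF with anti-PD-L1 over anti-PD-L1, 0 of 69 were higher and 1 lower (0.841% and 0.893%), again H2-DMb2 in C1q macrophages, at -1.07, a gene there at 12 to 33.9 CPM. These shares past 2-fold are near the background. Most pairs lay below 0, with 22 of 78 above 0 for 2DG and 10 of 69 for 2FF. For 2FF, member medians were -0.64 in IFN-high monocytes (0 of 7 above 0) and -0.43 in C1q macrophages (0 of 8). All genes tested gave -0.09 and -0.06 there. Mature DC went the other way, at 0.10 for 2FF and 0.33 for 2DG, as did IFN-low monocytes for 2DG (0.27). T cell medians were -0.24 for both inhibitors.

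With the inhibitor as the base, 2DG with anti-PD-L1 over 2DG had 2 of 76 pairs higher and 2 lower (1.35% and 1.2% of all pairs). Ciita (1.18) and H2-DMb1 (1.15) were higher in mature DC, and H2-DMb2 (-1.37) and H2-Oa (-1.22) lower in cDC2. For 2FF with anti-PD-L1 over 2FF, 0 of 70 were higher and 3 lower (0.528% and 0.736%). These were the class II chains of IFN-high monocytes, H2-Aa (1700 to 768 CPM, -1.14), H2-Ab1 (1881 to 906 CPM, -1.05) and H2-Eb1 (1156 to 542 CPM, -1.09). Class II RNA was lower in T cells and neutrophils of the same pair too, with member medians of -0.68 and -0.93.

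Of 27 further pathway genes, chosen with earlier results of these data known, 21 of 189 gene and class pairs were past 2-fold higher and 7 lower for 2DG over control, 25 of 189 and 5 for 2FF, and 23 of 191 and 8 for anti-PD-L1. Over all gene and class pairs, 2.44%, 3.54% and 3.13% were higher and 2.5%, 3.15% and 2.44% lower. The 7 genes of interferon-gamma signalling gave 16, 13 and 17 of these higher pairs, of 55 tested each, and 0 lower. The 7 promoter factors (Rfx5, Rfxank, Rfxap, Nfya, Nfyb, Nfyc and Creb1) gave 0, 1 and 0 of 39. The 8 endosomal proteases and reductase gave 1, 7 and 0 higher and 5, 4 and 6 lower, of 63, 64 and 64 tested. The 3 turnover genes gave 0, 1 and 2 higher and 2, 1 and 2 lower, of 18, 18 and 19. With anti-PD-L1 as the base, 2 of 208 pathway pairs were higher and 2 lower for added 2DG (1.07% and 1.1% of all pairs). For added 2FF, 2 of 192 were higher and 2 lower (0.841% and 0.893%). With 2DG as the base, 3 of 207 were higher and 2 lower (1.35% and 1.2%). With 2FF as the base, 0 of 194 were higher and 4 lower (0.528% and 0.736%).

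In IFN-low monocytes, Irf1, a transcription factor induced by interferon-gamma, read 105 CPM in the control and 406, 423, 389, 437 and 320 in the others. Socs1, which restrains interferon-gamma signalling, read 13 CPM in the control and 29.7 to 49.9 elsewhere. No other library came near the control for either gene. Of the 7 interferon-gamma signal genes, 3, 3 and 2 were past 2-fold higher in these cells for 2DG, 2FF and anti-PD-L1 over control. The medians of the 7 were 0.79, 0.87 and 0.93, short of 2-fold. H2-Eb2, a further class II beta chain, read 0.16 CPM in the control and 4.05 to 10.5 elsewhere. Rfx5, a subunit of the X box factor, stayed at 2.56 to 6.24 CPM.

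The endosomal enzymes of IFN-low monocytes went both ways. Ctsl, cathepsin L, read 822 CPM in the control and 298, 460, 288, 268 and 354 in the others, and Ctsd, cathepsin D, 779 against 290 to 386. Ctss, the cathepsin that cuts the invariant chain in most antigen-presenting cells, read 1394 CPM in the control and 1886 to 2367 elsewhere, short of 2-fold. Ifi30, the reductase GILT, was past 2-fold for 2FF over control at a log2 ratio of 1.01 (528 and 1068 CPM).

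The 3 turnover genes had unlike patterns across classes. March1, a ligase that sends class II molecules for degradation, averaged 16 ± 10.5 CPM in mature DC against 333 ± 29.6 in cDC2 and 613 ± 116 in IFN-low monocytes. Cd83, which opposes March1, averaged 1082 ± 174 CPM in mature DC 657 ± 177 in cDC2 and 959 ± 325 in B cells. March8, a related ligase, averaged 4.87 ± 2.34 CPM in mature DC, 1.78 ± 1.87 in cDC2 and 28.3 ± 6.24 in C1q macrophages. These are levels over 6 libraries, described without a test.

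The genes whose pattern was most like that of H2-Aa, H2-Ab1, H2-Eb1 and Cd74 were taken by Pearson correlation of log2(CPM + 5) over 65 class and library sums among 12210 genes. They were Gm20513 (0.94), Erp29 (0.88), Ifi30 (0.87), Plekho1 (0.86) and Tcof1 (0.84). The sums share libraries and classes, so the values are a description. Gm20513 is annotated as antisense (chromosome 17, 34293073 to 34308070, minus strand) and 2204 of its bases lie inside the H2-Eb1 gene on the other strand, so its counts are uncertain. Within the members, H2-DMb2 correlated with the 4 at 0.73, H2-Oa at 0.61 and H2-Ob at 0.61.

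Keratin-positive cells were rare, 0, 5, 10, 1, 5 and 10 in the 6 libraries, so no library held the 20 cells that a test needed. Pooled over 5 libraries, all 31 held Krt8 and Krt18, while Epcam was found in 5 cells with 239 of its 298 UMIs in 1 of them. Akt2, raised by design in KPCA cells, read 51.5 CPM against 64 in T cells, and Ccne1, also raised, 26.4 against 10.6, so the cells are called by their keratins here. They held H2-Aa at 584 CPM (95% Poisson interval 531 to 641) against 197 in T cells of the same libraries, with a UMI in 23 of 31 cells. Cd74 read 1208 against 558 CPM, Ciita 63.4 against 16 and H2-DMb1 166 against 19.8. H2-Oa and H2-Ob had 0 UMIs, where 3 UMIs would have been 3.96 CPM.

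Marker lists of other antigen-presenting cells went both ways in the keratin-positive cells. The summed macrophage markers read 3.96 CPM against 175 in T cells, with 2 of 6 found, the B cell markers 1.32 against 42.7 with 1 of 6 found, the cDC2 markers 13.2 against 42.4 with 3 of 6 found, and the pDC markers 0 UMIs against 44 CPM. The classical monocyte markers read 267 CPM against 544, with 5 of 6 found. The cDC1 markers, at 59.5 against 43.4 CPM with 4 of 6 found, and the mature DC markers, at 111 against 42.0 with 3 of 6 found, were higher than in T cells. Of the other lists, the fibroblast markers read 252 CPM against 2.15 with 4 of 6 found. The plasma cell markers read 203 against 38.4 with 2 of 6 found. Endothelial (71.4 against 48.7) and mast cell markers (2.64 against 0.452) were higher too. Those of neutrophils (3.96 against 58.3), NK cells (51.5 against 139) and non-classical monocytes (80.6 against 340) were lower. Among single genes, Lyz2 read 6.61 CPM against 161, Ctss 7.93 against 189, Tyrobp 1.32 against 90.1 and C1qa 2.64 against 61.2. Irf8 read 102 against 140 CPM, Cst3 205 against 189 and Ctsl 461 against 24.4. The part of other cells in the class II level was not tested. Of the 31 cells 7 were marked as resembling doublets, and the other 24 held 619 CPM of H2-Aa. H2-Aa had 0 UMIs in 8 cells, of which 6 held only 658 to 2425 UMIs in all, too few for any 1 alone to show a lower level. The others held 6401 and 7802 UMIs, where cells of 4791 and 4830 UMIs held 5 and 1 of H2-Aa. Whether the level differed between keratin-positive cells was not tested. A cell of 34710 UMIs held 60, and the cell of 159299 UMIs in the 2FF with anti-PD-L1 library held 77. The median log2 ratio over T cells across the members was 2.42, 1.5, 0.96, 1.61 and 1.39 in the 5 libraries.

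**Figure D5:**
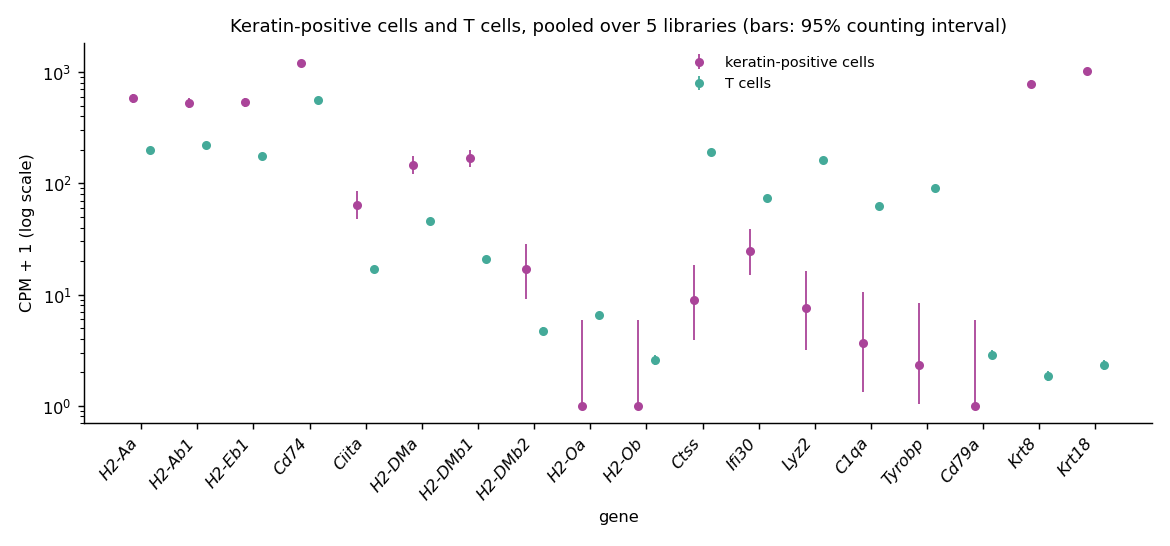
Class II genes and genes of other cell types in the 31 pooled keratin-positive cells and in T cells of the same 5 libraries, in CPM on a log axis with 95% Poisson intervals. H2-Aa reads 584 CPM in keratin-positive cells and 197 in T cells, while Lyz2 reads 6.61 and 161. Not drawn are Cst3 (205 and 189 CPM) and the summed markers of cDC1 (59.5 and 43.4) and mature DC (111 and 42.0), which were higher in keratin-positive cells.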

How the data were processed

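Single-cell 3' RNA libraries of 6 mice, 1 per treatment, were analysed and grouped by the treatment label. What the authors deposited are raw counts of UMIs for each gene in each cell, without normalization. The file headers and the methods name Cell Ranger 7.0.0, while the submitters' processing notes name 3.1.0, and the build is mm10. Positions are from GENCODE (GRCm38) and promoters from RefSeq (GRCm38.p6). The members, gene lists and tests were chosen with earlier results of these data known. The named genes are the 10 members, the 27 pathway genes, the 5 genes most correlated with H2-Aa, H2-Ab1, H2-Eb1 and Cd74, and gate markers where a gate is checked. Lyz2, Tyrobp, Irf8, Cst3, Akt2 and Ccne1 were singled out after their values were seen. The values of 1 pathway gene are not reported here.

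Cells with at least 250 genes and at most 5% mitochondrial UMIs were gated by 6 fixed markers a class. A class needed at least 3 detected (2 for cDC1, pDC and non-classical monocytes), more than any other class, and 17.7 to 22.5% of a library stayed ungated. IFN-high monocytes had at least 10 UMIs of Isg15, Ifit1, Ifit2, Ifit3, Rsad2 and Cxcl10 per 10000. Doublets were kept, and 3949 cells that most resembled simulated ones were removed in an alternative. UMIs were summed per class and library (at least 20 cells) and given as CPM with exact Poisson intervals at 95%. Intervals cover counting error only. Depth was 61859753 to 73885214 UMIs per library.

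Classes were compared within libraries on log2(CPM + 5) by an exact two-sided sign-flip permutation test with Benjamini-Hochberg adjustment. As an alternative added after seeing the data, edgeR 4.0.16 (quasi-likelihood, all genes, library and class as terms) was fitted in R 4.3.3. Both steps were tested on simulated data. Treatments were compared as ratios without a test. The test planned for keratin-positive against T cells could not be run, since no library held 20 such cells, and pooled values are given instead. The other steps used Python 3.11.15 with numpy 2.4.6, scipy 1.17.1, pandas 2.3.3, igraph 0.11.9 and leidenalg 0.10.2. Clusters (28, Leiden) served only to check the gates, and class II genes were not excluded from the variable genes they rest on. Alternatives covered the mitochondrial limit, gate strictness, doublets, cluster agreement, scaling, pseudocount, UMI filter, thinning and leaving out libraries.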

Additional observations from a re-analysis of the deposited data

Results flagged for a closer look

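The log2 ratio that went with anti-PD-L1 had opposite signs with and without an inhibitor in 6 pairs of class and inhibitor. They were picked among 8 classes with each inhibitor by a rule on these values. In the 6, every tested member lay above 0 for anti-PD-L1 over control and below 0 for the combination over the inhibitor alone. Other pairs did not meet the rule. In mature DC with 2DG the median was 0.71 against 0.77, with 9 of 9 members above 0 in each. With 2FF, the member median was -0.53 against 1.69 in IFN-low monocytes, -0.88 against 1.73 in IFN-high monocytes, -0.58 against 1.28 in non-classical monocytes and -0.49 against 0.73 in C1q macrophages. With 2DG, it was -0.36 against 1.73 in IFN-high monocytes and -0.75 against 1.28 in non-classical monocytes. Each value compares 1 library with 1 other and the difference itself was not tested. All 6 values without an inhibitor rest on the same control library, in which class II RNA of monocytes was the lowest of the 6. The T cell median for 2FF with anti-PD-L1 over 2FF was -0.68 and that of neutrophils -0.93, and the part of this in the monocyte values was not tested.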

How the results depend on the processing

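No member ratio over control past 2-fold in monocytes or mature DC changed sign under the alternatives. For other values a change of sign was not looked for. Of the values that answer a comparison, 344 stayed within their spread or within 1.5 times their count and 41 moved. Small class differences could change sign with the method, as H2-Aa of IFN-high minus IFN-low monocytes did (-0.14 in log2(CPM + 5), 0.02 by edgeR). Most moves were in counts of at most 5 pairs, and the others are given below. Depth limits H2-DMb2, H2-Oa and H2-Ob in monocytes and pDC. No paired analysis was possible because the labels carry no replicate numbers that groups share, with 1 library per treatment. The class tests are already paired within the library, and without 1 library they cannot fall below p = 0.0625 (exact), so they are given as values.

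With monocytes kept only in agreeing clusters, the mean level of H2-Aa, H2-Ab1, H2-Eb1 and Cd74 in IFN-low cells was 1087 CPM (1832 as reported), and the non-classical minus IFN-low median -0.21. The same mean in control Spp1 and Gpnmb macrophages was 531 without marked doublets and 1736 with or without Gpnmb (1042 as reported). The edgeR fit called 48, against 0 for the exact tests, whose smallest possible p left little room for a call. Leaving out each library in turn, the median difference over members ran from 0.07 to 0.20 for cDC1 minus cDC2, -1.40 to -1.07 for mature DC, -2.34 to -1.84 for pDC and -1.34 to -1.23 for B cells, each minus cDC2. It ran from 1.05 to 1.26 for C1q macrophages, -0.24 to -0.09 for IFN-high and -0.85 to -0.58 for non-classical monocytes, each minus IFN-low. For keratin-positive over T cells it was 1.40, 1.23 to 1.86 without 1 library, 2.20 as a mean over cells and 3.55 without marked doublets, where the T cell level of H2-Aa itself was 31.6 CPM.

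Members past 2-fold lower for 2DG with anti-PD-L1 over anti-PD-L1 numbered 1 (agreeing clusters, TMM factors or at least 200 UMIs) or 4 (no UMI filter or pseudocount 1). For 2FF with anti-PD-L1 over anti-PD-L1 they numbered 0 (doublets removed, TMM or at least 200 UMIs) or 2 (mean over cells, thinned or pseudocount 1). For 2DG with anti-PD-L1 over 2DG, those higher numbered 0 with 1 marker more and 1 with agreeing clusters, mean over cells, thinning or at least 200 UMIs, and those lower 5 without doublets. For 2FF with anti-PD-L1 over 2FF, 1 was lower with 1 marker more or TMM. With at least 200 UMIs, pathway pairs lower for 2FF over control numbered 3. In the same setting those for 2DG with anti-PD-L1 over anti-PD-L1 were 0 higher and 1 lower, for 2FF with anti-PD-L1 over anti-PD-L1 1 higher and 0 lower, for 2DG with anti-PD-L1 over 2DG 1 lower, and for 2FF with anti-PD-L1 over 2FF 2 lower. Centred on the median of all genes, they were 1 lower for 2DG with anti-PD-L1 over anti-PD-L1 and 5 higher for 2DG with anti-PD-L1 over 2DG. Shares of cells with an H2-Aa UMI at 2000 UMIs and unthinned were 97.3 and 98.4% for cDC2, 40.8 and 51.4% for IFN-low monocytes and 7.79 and 16.1% for T cells. The causes were not tested.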
